A study of Mus musculus with 2 samples.

Results

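Interferon-stimulated genes were followed in single hippocampal cells of 2 mouse genotypes, as a set of 40 genes chosen by symbol. All 40 symbols were found among the 32285 genes of the deposited tables. Within each cell class, named from marker genes, the level of each gene in the 60TM library was set against that in the WT library. WT mice were C57BL6/J. The 60TM line, GFAP-hGFAP (60TM), is kept on C57BL6/J and carries a human GFAP transgene, and it serves to model Alexander disease. All mice were 7 weeks old, and each genotype has 1 library that pools 3 mice, with no map from barcodes to mice. The tissue was digested with papain, and libraries were made with the 10x Genomics Chromium 3' v3 kit and sequenced to a mean of 63967 (WT) and 54044 (60TM) reads per cell. With 1 library per genotype no difference was tested. Ranges in parentheses are 95% intervals that cover counting error only, and a gene is called higher or lower in 60TM at a ratio of at least 2 in either direction.

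Interferons are cytokines that cells release when sensors meet viral or displaced nucleic acid. Type I interferons act through the receptor chains Ifnar1 and Ifnar2, and many of their target genes carry the interferon-stimulated response element (ISRE) in the promoter. Interferon gamma acts through Ifngr1 and Ifngr2, and its targets often carry the gamma-activated site (GAS). The targets block virus entry, degrade or sense nucleic acid and feed back on the pathway.

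After filtering, 6086 WT cells (57439787 unique molecular identifiers, UMIs, median 7216 per cell) and 7575 60TM cells (70839273 UMIs, median 7502) remained. The libraries shared 20 barcode sequences. Of 30 clusters, built without the interferon genes, 13 cell classes had at least 50 cells in each library, from microglia (2088 WT and 2451 60TM cells), astrocytes (955 and 2016) and oligodendrocytes (1375 and 752) down to neurons (81 and 113). No cluster could be named as pericytes. Cluster 23, with mural and endothelial markers (32 and 110 cells), and cluster 24, with fibroblast and mural markers (74 and 65 cells), are described by number. Levels are counts per 1000000 UMIs of a class (CPM). Mouse Gfap had 395 and 1326 CPM in WT and 60TM astrocytes, a ratio of 3.35 (3.21 to 3.50). Gfap was also higher outside astrocytes, with 3.58 and 14.2 CPM in microglia and 31.7 and 191 CPM in endothelial cells, and the part of free astrocyte RNA in other classes was not tested beyond 1 subtraction of free RNA.

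The promoters show what the genes share beyond their name. RefSeq promoter windows on build GRCm38.p6, from 250 bases before to 50 bases after the start, were matched for 31 of the 40 genes. The ISRE letters GAAANNGAAA, read on both strands, occurred in 20 of 31 genes (64.5%) and in 3.99% of all 27025 genes with a window. The GAS letters TTCNNNGAA occurred in 9 of 31 (29.0%) and in 9.55% of all genes, and in 2 windows of the set a GAS match overlapped an ISRE match. A match describes the letters, not a bound site. The stretches below, all upstream of the start, are shown because Isg15, Ifit1, Ifit3, Ifit3b and Bst2 were higher in many classes, Rsad2 was among the genes with the largest ratios in microglia, and Oas1a was called in the macrophage classes alone. Each is written 5' to 3' along the gene's strand with ISRE matches in capitals, and a match on the other strand reads as TTTC, any 2 bases, TTTC.
Isg15, chr4:156200855-156200916, minus strand: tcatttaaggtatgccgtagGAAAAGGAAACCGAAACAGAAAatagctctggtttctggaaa
Ifit1, chr19:34640765-34640833, plus strand: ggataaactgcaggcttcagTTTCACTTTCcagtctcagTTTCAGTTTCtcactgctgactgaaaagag
Ifit3, chr19:34583353-34583436, plus strand: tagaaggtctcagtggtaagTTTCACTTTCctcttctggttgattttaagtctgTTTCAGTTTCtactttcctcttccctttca
Ifit3b, chr19:34607749-34607832, plus strand: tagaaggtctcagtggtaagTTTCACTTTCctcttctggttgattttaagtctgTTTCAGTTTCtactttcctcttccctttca
Bst2, chr8:71537567-71537622, minus strand: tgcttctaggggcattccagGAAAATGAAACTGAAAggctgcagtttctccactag
Rsad2, chr12:26456543-26456592, minus strand: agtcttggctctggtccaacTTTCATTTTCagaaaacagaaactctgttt
Oas1a, chr5:120907526-120907565, minus strand: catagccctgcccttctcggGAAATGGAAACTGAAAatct
The Isg15 stretch held 3 overlapping ISRE matches, those of Ifit1, Ifit3, Ifit3b, Bst2 and Oas1a held 2 each, and that of Rsad2 held 1. The stretches of Ifit3 and Ifit3b, both on chromosome 19, had the same 84 letters. Stretches were taken around ISRE matches, so genes with large ratios and no match have none. Ifit2, Ifi44 and Oasl2 had ratios of 18.2, 74.9 and 11.3 in microglia, and their windows held 0 ISRE matches. Ifi204 and Iigp1, with ratios of 14.4 and 21.2 there, had no matched window.

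The summed level of the 40 genes in WT was highest in endothelial cells (5176 CPM) and in border macrophages, the macrophages of vessels and meninges (4870 CPM). Microglia had 1074 CPM, astrocytes 330 CPM and oligodendrocytes 198 CPM. The 60TM sum was 3.47 times the WT sum in astrocytes (1143 CPM), 2.46 times in microglia (2643 CPM), 2.14 times in border macrophages (10429 CPM) and 1.19 times in endothelial cells (6160 CPM). Endothelial cells thus had a high level in both libraries with little difference, while microglia and astrocytes had a low WT level and a large ratio.

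**Figure D1:**
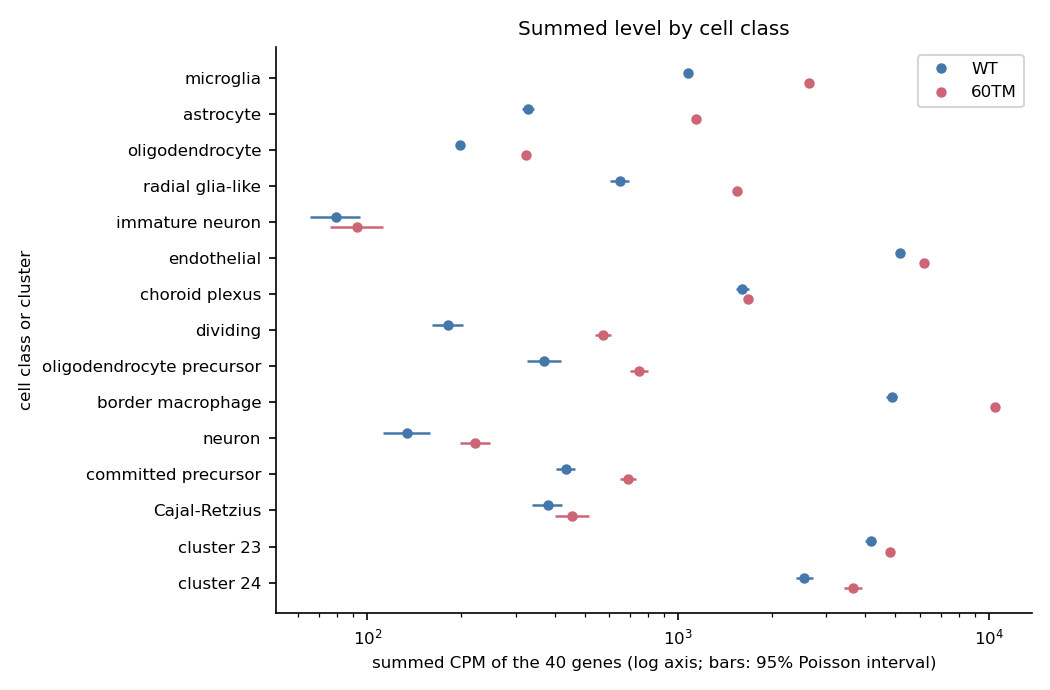
Summed level of the 40 interferon-stimulated genes (CPM of the class, log axis) in each cell class and in clusters 23 and 24, for the WT and 60TM library, with 95% Poisson intervals for counting error. The libraries lie far apart in microglia, astrocytes and border macrophages and close together in endothelial cells, choroid plexus epithelium and cluster 23.

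In microglia, the resident macrophages of the brain, all 40 genes were measured, which means at least 20 UMIs over both libraries, and 37 had at least 10 UMIs in WT alone. Of the 40, 28 were at least 2-fold higher in 60TM and 1 was lower, beside 2.63% higher and 1.74% lower among 12872 measured genes. Of the 37, 25 were higher. The median log2 ratio was 1.80, beside -0.0391 over all genes. An 8-gene sum of immediate early genes, which also respond to dissociation, had 7906 CPM in WT and 11404 CPM in 60TM microglia, and its part in the result was not tested.

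Of the 5 role groups, the Ifit and Isg15 effectors had the highest median log2 ratio in microglia, 3.55. All 8 were higher, and their summed level was 19.8 CPM in WT against 225 CPM in 60TM. Ifit2, an RNA-binding antiviral protein, had 29 and 734 UMIs (WT and 60TM, as in all pairs below), or 2.16 and 39.4 CPM, a ratio of 18.2 (12.6 to 27.4). Ifit1, which binds RNA that lacks the host's cap methylation, had 21 and 403 UMIs, a ratio of 13.8 (8.92 to 22.6). Ifit3, which stabilises Ifit1, had 5.52 and 59.6 CPM, a ratio of 10.8 (8.53 to 13.9), and its close copy Ifit3b one of 14.4 (8.70 to 25.4). All 4 Ifit genes were thus between 1.19 and 5.52 CPM in WT microglia and between 17.1 and 59.6 CPM in 60TM. Isg15, a ubiquitin-like protein that is attached to other proteins, had 67 and 1004 UMIs, a ratio of 10.8 (8.42 to 14). Its protease Usp18, which also damps receptor signalling, had a ratio of 6.31 (4.52 to 9.03). Rsad2 (viperin), which makes a chain-terminating nucleotide, had 0.895 and 11.4 CPM, a ratio of 12.7 (7.13 to 25). Cmpk2, a nucleotide kinase, had 7 and 65 UMIs, a ratio of 6.68 (3.07 to 17.3).

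Of the 10 genes that sense or act on nucleic acid, 7 were higher in microglia. Ifi204, a DNA-binding member of the Ifi200 family, had 73 and 1463 UMIs, a ratio of 14.4 (11.4 to 18.5). Oasl2, of the oligoadenylate synthetase family, had a ratio of 11.3 (8.04 to 16.4), and Zbp1, a sensor of Z-form nucleic acid that can trigger necroptosis, one of 11.1 (6.80 to 19.3). The RNA sensors Ifih1 (Mda5) and Ddx58 (Rig-I) stayed under the call, with ratios of 1.49 (1.28 to 1.73) and 1.52 (1.33 to 1.73). Samhd1, which degrades nucleotides, had 67.4 and 73.1 CPM, a ratio of 1.08 (0.996 to 1.18). Ifi204, Oasl2 and Zbp1 had the largest ratios of the 10. Over their last 500 bases, Oas1a transcripts share 56.1% of their 50-base words with Oas1g, and Ifi209 transcripts share 63.4% with Ifi214, so the ratios of Oas1a (5.49) and Ifi209 (4.89) are uncertain.

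Among genes that act at membranes, Bst2 (tetherin), which holds budding viruses at the cell surface, was abundant in WT microglia already, with 162 and 339 CPM, a ratio of 2.10 (2.0 to 2.20). Ifitm3, which blocks fusion of viruses in endosomes, had 42 and 165 CPM, a ratio of 3.93 (3.59 to 4.30). Rtp4, a chaperone of membrane receptors, had a ratio of 4.10 (3.54 to 4.77). Of 6 interferon-induced GTPases, which act against intracellular microbes, 2 were higher. These were Iigp1, with 4 and 118 UMIs and a ratio of 21.2 (8.08 to 79.2), and Gbp2, with a ratio of 2.89 (2.11 to 4.04). Igtp, Irgm1, Gbp3 and Gbp7 had ratios from 1.25 to 1.88.

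Of the remaining 12 genes, 8 were higher in microglia. Ifi44 had 1 and 104 UMIs, a ratio of 74.9 (13.1 to 2985) whose width reflects the single WT count. Ifi27l2a, a small membrane protein, had 588 and 4988 UMIs, or 43.9 and 268 CPM, a ratio of 6.11 (5.61 to 6.66), and in 60TM microglia it was the next most abundant gene of the set after Bst2. Slfn5, of the Schlafen family, had 116 and 1058 UMIs, a ratio of 6.57 (5.42 to 8.02). Ifi27, a mitochondrial protein with a similar name to Ifi27l2a, differed little, with 98.4 and 122 CPM and a ratio of 1.24 (1.15 to 1.32).

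Ifitm2, a relative of Ifitm3, was the 1 gene lower in microglia, with 14.9 and 6.66 CPM, a ratio of 0.446 (0.354 to 0.561). Its counts sat in few cells. In a finer clustering, 13 WT and 7 60TM cells of the class fell into a cluster with neutrophil and monocyte markers. The 13 cells, 0.623% of WT microglia, held 82% of the WT Ifitm2 UMIs, and the 7 cells held 33.9% of the 60TM Ifitm2 UMIs. Without them Ifitm2 had 2.71 CPM in WT and 4.42 CPM in 60TM, and the class as drawn by the finer clustering gave a ratio of 1.63. The same 13 and 7 cells held 6.28% of the UMIs of all 40 genes in WT and 0.965% in 60TM microglia, and their part in the ratios of other genes was not tested. Neutrophil markers summed to 457 CPM in the WT class and 54.1 CPM in the 60TM class. The end of the Ifitm2 transcript shares 41.9% of its 50-base words with other genes, so its counts are uncertain in every class.

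**Figure D2:**
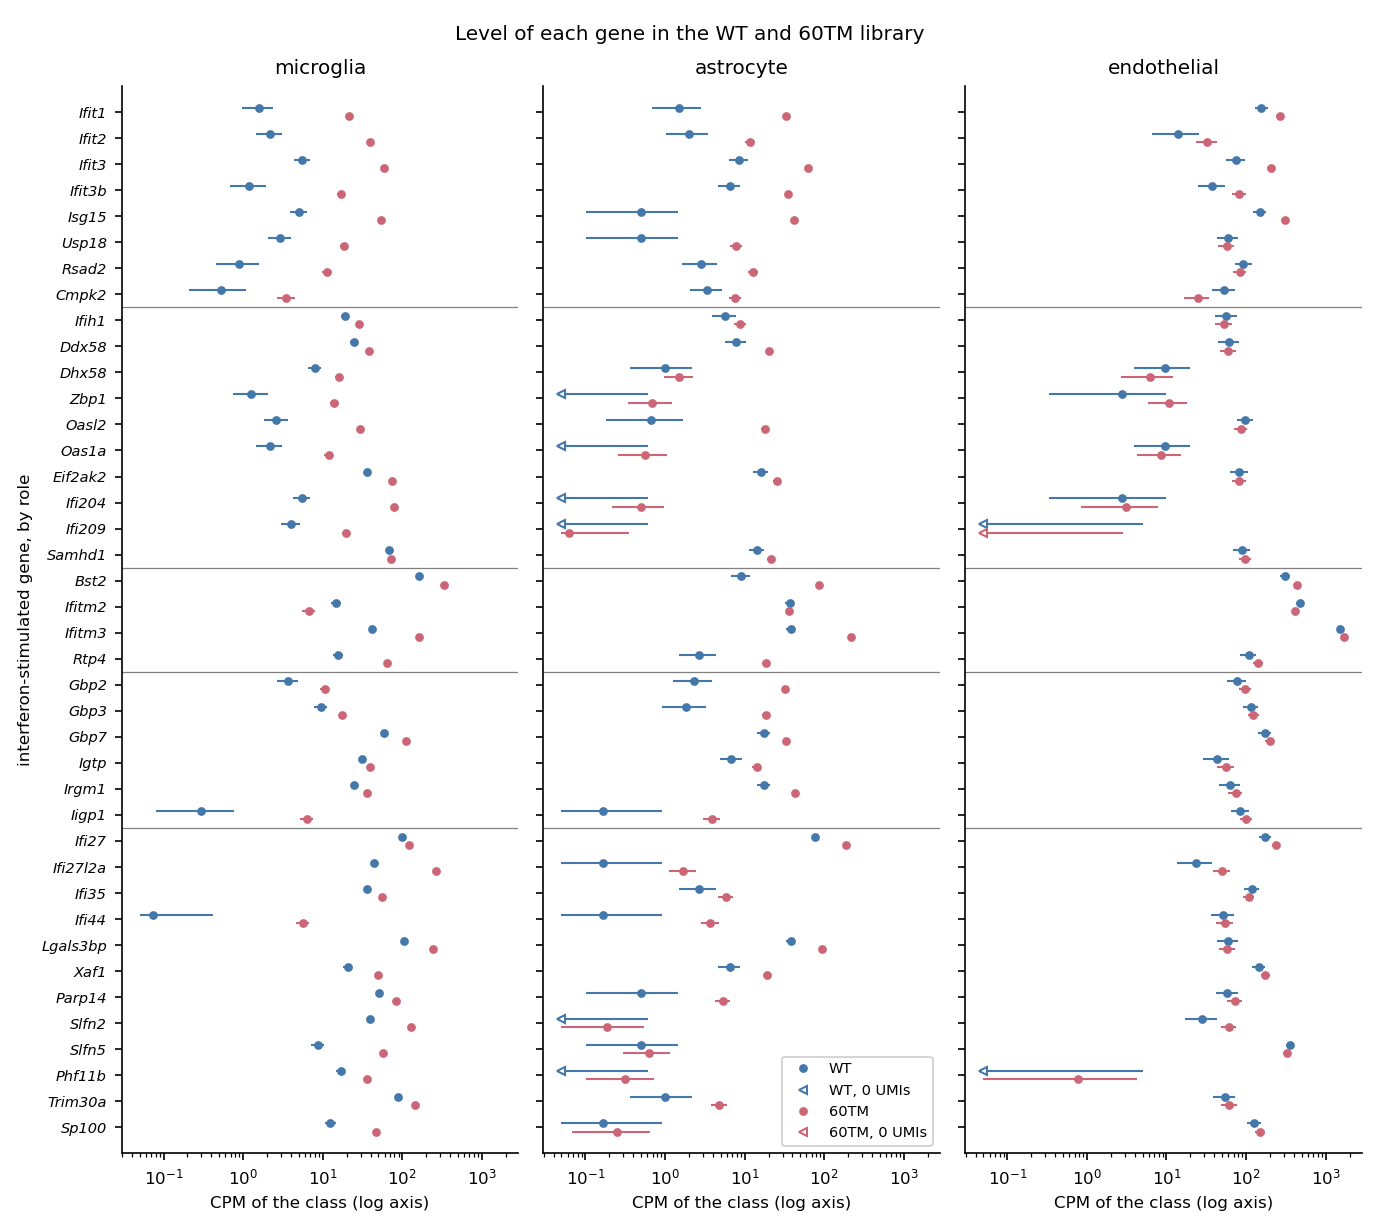
Level of each of the 40 genes (CPM of the class, log axis), grouped by role, in the WT and 60TM library in microglia, astrocytes and endothelial cells, with 95% Poisson intervals for counting error. In microglia and astrocytes most 60TM points lie to the right of the WT points, and in endothelial cells most pairs lie close together.

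In astrocytes, 32 of the 40 genes were measured, and 22 had at least 10 UMIs in WT alone. Of the 32, 26 were at least 2-fold higher in 60TM and 0 were lower, beside 6.59% higher and 2.71% lower among 13435 measured genes. Of the 22, 17 were higher. The median log2 ratio was 2.35, beside -0.0531 over all genes. Immediate early genes had 241 CPM in WT and 1225 CPM in 60TM astrocytes, microglia markers 124 and 137 CPM, and their part in the result was not tested.

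All 8 effectors were higher in astrocytes, with a summed level of 25.6 CPM in WT and 214 CPM in 60TM. Isg15 had 3 and 679 UMIs, a ratio of 85 (29 to 413). Ifit1 had 9 and 527 UMIs, a ratio of 22 (11.5 to 48.4), although 55.6% of its WT UMIs came from 1 cell. Ifit3 had 8.48 and 63.1 CPM, a ratio of 7.44 (5.61 to 10.1). Isg15 was thus nearly without counts in WT astrocytes, while Ifit3 stood higher there than in WT microglia and ended at a similar level in 60TM. Usp18 had 3 and 126 UMIs, a ratio of 15.8 (5.28 to 77.5). Cmpk2 had 20 and 122 UMIs, a ratio of 2.29 (1.42 to 3.88), although 43.4% of its 60TM UMIs came from 1 cell. Of the 10 nucleic acid genes, 6 were measured and 2 were higher. These were Oasl2, with 4 and 288 UMIs and a ratio of 27 (10.4 to 99.9), and Ddx58, with a ratio of 2.63 (1.93 to 3.65). Zbp1, Oas1a, Ifi204 and Ifi209 had 0 UMIs in WT astrocytes and between 1 and 11 in 60TM.

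Of the 4 membrane genes, 3 were higher in astrocytes. Bst2 had 54 and 1390 UMIs, or 8.98 and 86.8 CPM, a ratio of 9.67 (7.37 to 12.9). Ifitm3 had 38.1 and 218 CPM, a ratio of 5.71 (5.0 to 6.56), and Rtp4 one of 6.95 (4.21 to 12.3). Ifitm2 had 36.8 and 35.8 CPM, a ratio of 0.974 (0.832 to 1.14), so the related genes parted. Of the 6 GTPases, 5 were higher. Gbp2 had 14 and 515 UMIs, a ratio of 13.8 (8.16 to 25.4), and Gbp3 had 11 and 300 UMIs, a ratio of 10.2 (5.64 to 20.7). Irgm1 and Igtp, which act at vacuoles, had ratios of 2.44 (1.98 to 3.02) and 2.10 (1.5 to 3.0), beside 1.44 and 1.25 in microglia. All 8 measured genes of the remaining group were higher, among them Parp14, an ADP-ribosyltransferase, with a ratio of 10.6 (3.52 to 52.6), and Ifi27 with 76.9 and 191 CPM, a ratio of 2.49 (2.25 to 2.75).

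The astrocyte clusters took different shares of the libraries. Cluster 5, with Lcn2, Mgst1 and Gfap among its leading genes, made up 11.9% of WT and 52% of 60TM astrocytes, and cluster 6, with Slc6a11 and Agt, 53.5% and 29.5%. Cluster 27, with Gdf15, Chac1, Ccl2 and Cxcl10, held 0 WT and 83 60TM cells. Within clusters the 60TM sum of the set was 1.82 times the WT sum in cluster 6 (230 and 418 CPM), 2.31 times in cluster 11, 2.48 times in the shallow cluster 15 and 2.70 times in cluster 5 (459 and 1239 CPM). Each cluster with cells of both libraries was higher in 60TM, by less than the class as a whole. Cluster 27 had 3147 CPM and held 17.3% of the UMIs of the set in 60TM astrocytes. Within cluster 5, 21 of 30 measured genes were higher, beside 9.10% of all genes, and within cluster 6, 9 of 20, beside 1.69%. With clusters weighted as in WT, which leaves out cluster 27, the median log2 ratio was 1.25 and 19 genes were higher.

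Single genes differed in how they were spread over these clusters. Ifitm3 had ratios of 3.11 (2.46 to 4.0) in cluster 5, 3.46 (2.33 to 5.29) in cluster 6 and 2.80 (2.06 to 3.78) in cluster 11, and one of 3.02 with clusters weighted as in WT. Bst2 had 7.71 (4.04 to 16.9), 2.32 (1.32 to 4.29) and 2.85 (1.44 to 5.49) in the same clusters, and 3.61 when weighted. Gbp2 had 1 and 175 UMIs in cluster 5, 3 and 0 in cluster 6 and 323 60TM UMIs in cluster 27, and its weighted ratio was 2.26. Ifitm3 was thus higher by a similar factor in clusters 5, 6 and 11, whereas Gbp2 counts came mostly from clusters 5 and 27. Isg15 had 300 of its 679 60TM UMIs in the 83 cells of cluster 27, and a weighted ratio of 28.1.

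Microglial clusters differed less. Clusters 1, 2 and 4 held nearly all microglia, and cluster 2, with Ccl4, Tnf, Atf3 and Fosb among its leading genes, made up 24.5% of WT and 42.2% of 60TM microglia. The 60TM sum of the set was 2.47, 2.38 and 2.40 times the WT sum in clusters 1, 2 and 4. Ifit3 had ratios of 8.33 (5.47 to 13.2), 10.2 (7.04 to 15.4) and 12 (7.59 to 19.9), whose intervals overlap. Ifitm3 had 7.82 (6.30 to 9.80) in cluster 1 and 2.04 (1.82 to 2.30) in cluster 2, where its WT level was 82.9 CPM against 20.9 CPM in cluster 1. Ifi27l2a had 15.3 (12.1 to 19.7) in cluster 1 and 3.31 (2.97 to 3.68) in cluster 2. For Ifitm3 and Ifi27l2a the ratio was smaller in cluster 2, the cluster led by immediate early and cytokine genes. In WT microglia, 79 of 563 Ifitm3 UMIs and 63 of 588 Ifi27l2a UMIs came from 1 cell each. The part of such cells, or of the 13 WT cells with neutrophil and monocyte markers, in these cluster ratios was not tested. With clusters weighted as in WT, 28 genes were higher and the median log2 ratio was 1.76.

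**Figure D3:**
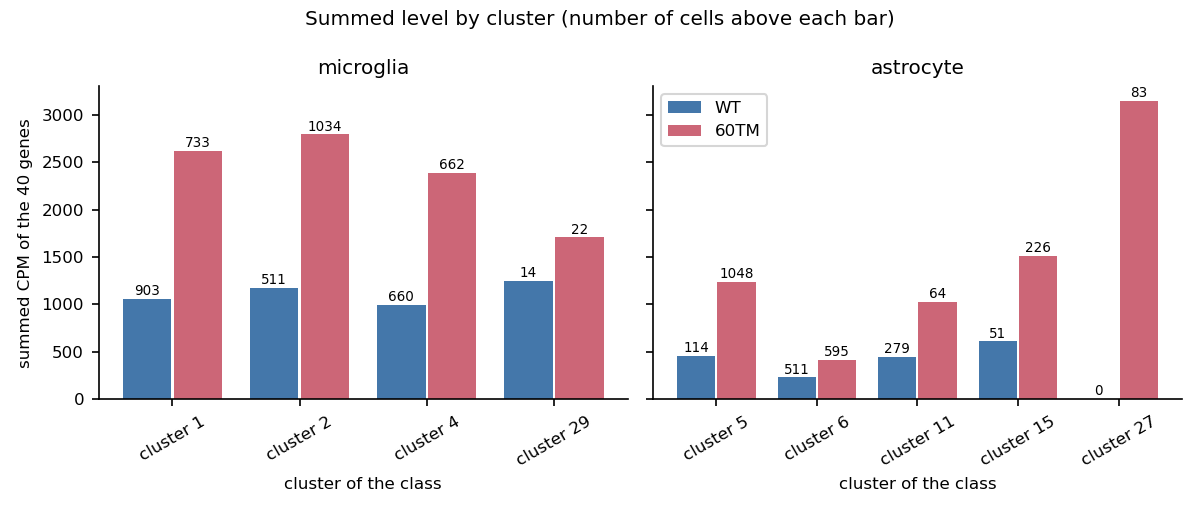
Summed level of the 40 genes (CPM of the cluster) in each cluster of the microglia and astrocyte classes, for the WT and 60TM library. Microglia clusters 1, 2 and 4 show similar steps between the libraries, and astrocyte cluster 27, with 0 WT cells, has the highest level among astrocytes.

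In border macrophages, 38 genes were measured, 20 were at least 2-fold higher and 0 were lower, beside 4.22% and 2.69% of all measured genes. Of 26 genes with at least 10 UMIs in WT alone, 9 were higher. The median log2 ratio was 1.18. Ifi27l2a was the most abundant gene of the set in 60TM border macrophages, with 405 and 2075 CPM, a ratio of 5.12 (4.39 to 5.99). Ifitm3 had a ratio of 2.28 (2.01 to 2.58), while Bst2 had 1044 and 1489 CPM, a ratio of 1.43 (1.28 to 1.59). Ifi204 had 205 CPM in WT border macrophages and 5.44 CPM in WT microglia, and its ratio here was 1.96 (1.55 to 2.50). Rsad2 had 4 and 84 UMIs, a ratio of 12.7 (4.78 to 47.7), close to its ratio in microglia. Of its 60TM UMIs here, 41.7% came from 1 cell. Ifit1 had 1 and 40 UMIs, a ratio of 24.2 (4.10 to 980), and Isg15 had 8 and 105 UMIs, a ratio of 7.94 (3.89 to 18.9).

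Radial glia-like cells, the stem-like cells that share markers with astrocytes, had 27 genes measured, with 16 higher and 1 lower, beside 3.13% and 2.64% of all genes. Of 19 genes with at least 10 UMIs in WT alone, 10 were higher. Isg15 had 1 and 103 UMIs, a ratio of 36.6 (6.42 to 1459). Bst2 had a ratio of 4.49 (3.11 to 6.70), Ifitm3 of 4.52 (3.55 to 5.84) and Oasl2 of 4.90 (2.50 to 11). Rsad2 had 0 and 22 UMIs and was at least 2.61-fold higher, with the WT side set to a floor of 3 UMIs. Ifitm2 was lower, with 45.3 and 19.2 CPM, a ratio of 0.425 (0.288 to 0.629), and so parted from Ifitm3 in this class too.

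Endothelial cells, which line vessels, had 34 genes measured, and all 34 had at least 10 UMIs in WT alone. Of these 6 were higher and 1 was lower, beside 2.32% and 2.74% of all measured genes, and the median log2 ratio was 0.22. The genes called higher were Ifit2, Ifit3, Ifit3b, Isg15, Ifi27l2a and Slfn2. Ifit3 had 74.5 and 207 CPM, a ratio of 2.78 (2.07 to 3.79), Isg15 had 149 and 305 CPM, a ratio of 2.05 (1.65 to 2.56), and Ifit1 had 156 and 268 CPM, a ratio of 1.72 (1.38 to 2.14). When each cell was thinned to 2000 UMIs, which leaves out 34 WT and 53 60TM cells, Ifit3 had a ratio of 1.49 and Isg15 of 1.59, 1 gene was called higher and the median log2 ratio was -0.0171. For Ifi27l2a, 52.9% of the WT and 57.8% of the 60TM endothelial UMIs came from 1 cell each.

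Ifitm3, the most abundant gene of the set in endothelial cells, had 1496 and 1702 CPM, a ratio of 1.14 (1.06 to 1.22). Bst2 had 309 and 431 CPM, a ratio of 1.40 (1.19 to 1.64), Rtp4 had a ratio of 1.32 (1.01 to 1.74), and Ifi27 one of 1.37 (1.11 to 1.70). For Ifitm3, Bst2 and Rtp4 the ratio fell below 1 when cells were given equal weight. Slfn5 had 356 and 326 CPM, a ratio of 0.916 (0.782 to 1.07). Cmpk2 was lower, with 38 and 32 UMIs and a ratio of 0.469 (0.284 to 0.771), while Rsad2 had a ratio of 0.898 (0.656 to 1.24).

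In cluster 23, with mural and endothelial markers, 34 genes were measured, 5 were higher and 0 were lower, beside 4.53% and 2.56% of all genes, with a median log2 ratio of 0.18. Isg15 had a ratio of 2.89 (2.10 to 4.07) and Ifit1 of 2.19 (1.64 to 3.0), whereas Ifitm3 had 1363 and 1357 CPM. In cluster 24, with fibroblast and mural markers, 13 genes were measured, 5 were higher and 0 were lower, beside 3.76% and 7.1%. Ifit3 had 8 and 58 UMIs, a ratio of 10.9 (5.18 to 26.4), and Ifit1 had 5 and 26 UMIs, a ratio of 7.82 (2.95 to 26.1). In 60TM cells of cluster 24, 63.8% of the Ifit3 and 76.9% of the Ifit1 UMIs came from 1 cell. Ifit1, Ifit3 and Ifit3b were called in both clusters, and Ifitm3 in neither. Ifit2 was not called in cluster 23 and, with 12 and 7 UMIs, was under the minimum in cluster 24. Of genes with at least 10 UMIs in WT alone, 4 of 31 were higher in cluster 23 and 1 of 11 in cluster 24. Mouse Gfap had 43.4 and 458 CPM in cluster 23 and 5.35 and 185 CPM in cluster 24, and the part of astrocyte RNA there was not tested.

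Oligodendrocytes, which make myelin, had 23 genes measured, with 7 higher and 1 lower, beside 2.74% and 1.31% of all genes. Ifi27l2a had 166 and 679 UMIs, or 7.17 and 48 CPM, a ratio of 6.70 (5.64 to 7.99). Bst2 had 6.13 and 14.6 CPM, a ratio of 2.39 (1.92 to 2.98), and Ifitm3 had 1.34 and 3.89 CPM, a ratio of 2.91 (1.84 to 4.67). The Ifit genes that were measured were not called. Ifit1 had 2.25 and 2.33 CPM, Ifit2 had 7.69 and 6.79 CPM, a ratio of 0.883 (0.682 to 1.14), and Ifit3 had 3.07 and 2.19 CPM, a ratio of 0.715 (0.453 to 1.10), while Ifit3b, with 2 and 15 UMIs, was under the minimum. Ifi27 had 96.5 and 162 CPM, a ratio of 1.68 (1.58 to 1.78), and Samhd1 a ratio of 0.672 (0.510 to 0.879). Rsad2 was lower, with 32 and 6 UMIs and a ratio of 0.307 (0.105 to 0.744), and 71.9% of its WT UMIs came from 1 cell. The same held in part for WT Ifit1, with 48.1% of its UMIs in 1 cell, Ifit3, with 64.8%, and Cmpk2, with 60.9%. WT UMIs of Ifit1 and of Ifit3 each lay in 4 of 1375 cells. Their 60TM UMIs lay in 13 and 14 of 752 cells. The oligodendrocyte count was 16 without doublet removal and 3 with free RNA subtracted.

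In oligodendrocyte precursor cells 13 genes were measured, 6 were higher and 0 were lower, beside 1.84% and 1.79% of all genes, and none of the 6 had 10 UMIs in WT. Ifit1 had 2 and 45 UMIs, a ratio of 13.1 (3.42 to 111), Ifit3 had a ratio of 5.09 (2.45 to 12.3), and Bst2 had 0 and 24 UMIs and was at least 4.66-fold higher. For Bst2, 50% of the 60TM UMIs came from 1 cell. In committed oligodendrocyte precursors 14 genes were measured, 7 were higher and 0 were lower, beside 1.51% and 1.48%. Of 12 genes with at least 10 UMIs in WT alone, 5 were higher. Ifit1 had 9 and 56 UMIs, a ratio of 6.21 (3.05 to 14.3), with 88.9% of its WT UMIs in 1 cell, and Rtp4 had a ratio of 5.99 (3.23 to 12.1). Ifit1 was thus called in both precursor classes and not in oligodendrocytes. Thinned to 2000 UMIs, 2 genes in oligodendrocyte precursor cells and 1 in committed precursors were called.

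In the dividing class 16 genes were measured, 11 were higher and 0 were lower, beside 3.25% and 2.47% of all genes. Of 7 genes with at least 10 UMIs in WT alone, 2 were higher. Ifi27l2a had 3 and 150 UMIs, a ratio of 48.6 (16.3 to 238). Microglia markers summed to 66.9 CPM in the WT and 890 CPM in the 60TM dividing class, and their part in the result was not tested. In choroid plexus epithelium, which secretes cerebrospinal fluid, 16 genes were measured, 2 were higher and 1 was lower, beside 7.51% and 2.69% of all genes. Of 11 genes with at least 10 UMIs in WT alone, 1 was higher. Ifi27 was abundant there in both libraries, with 1103 and 1014 CPM. Usp18 was lower, with 10 and 17 UMIs and a ratio of 0.357 (0.154 to 0.873), and 50% of its WT UMIs came from 1 cell. In neurons 4 genes were measured, and 2, Ifitm3 and Ifi27, were higher, beside 2.69% higher and 3.26% lower of all genes. Of 3 genes with at least 10 UMIs in WT alone, 1 was higher, and Ifitm3, with 3 and 21 UMIs, was not among the 3. Mouse Gfap had 18.3 and 129 CPM in neurons, and the part of astrocyte RNA there was not tested. In immature neurons 2 genes were measured and Ifi27 was higher, beside 1.11% and 1.94%. It had 11 and 18 UMIs there, and its interval includes 1. In Cajal-Retzius cells 2 genes were measured and none was called, beside 2.15% and 2.38%.

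**Figure D4:**
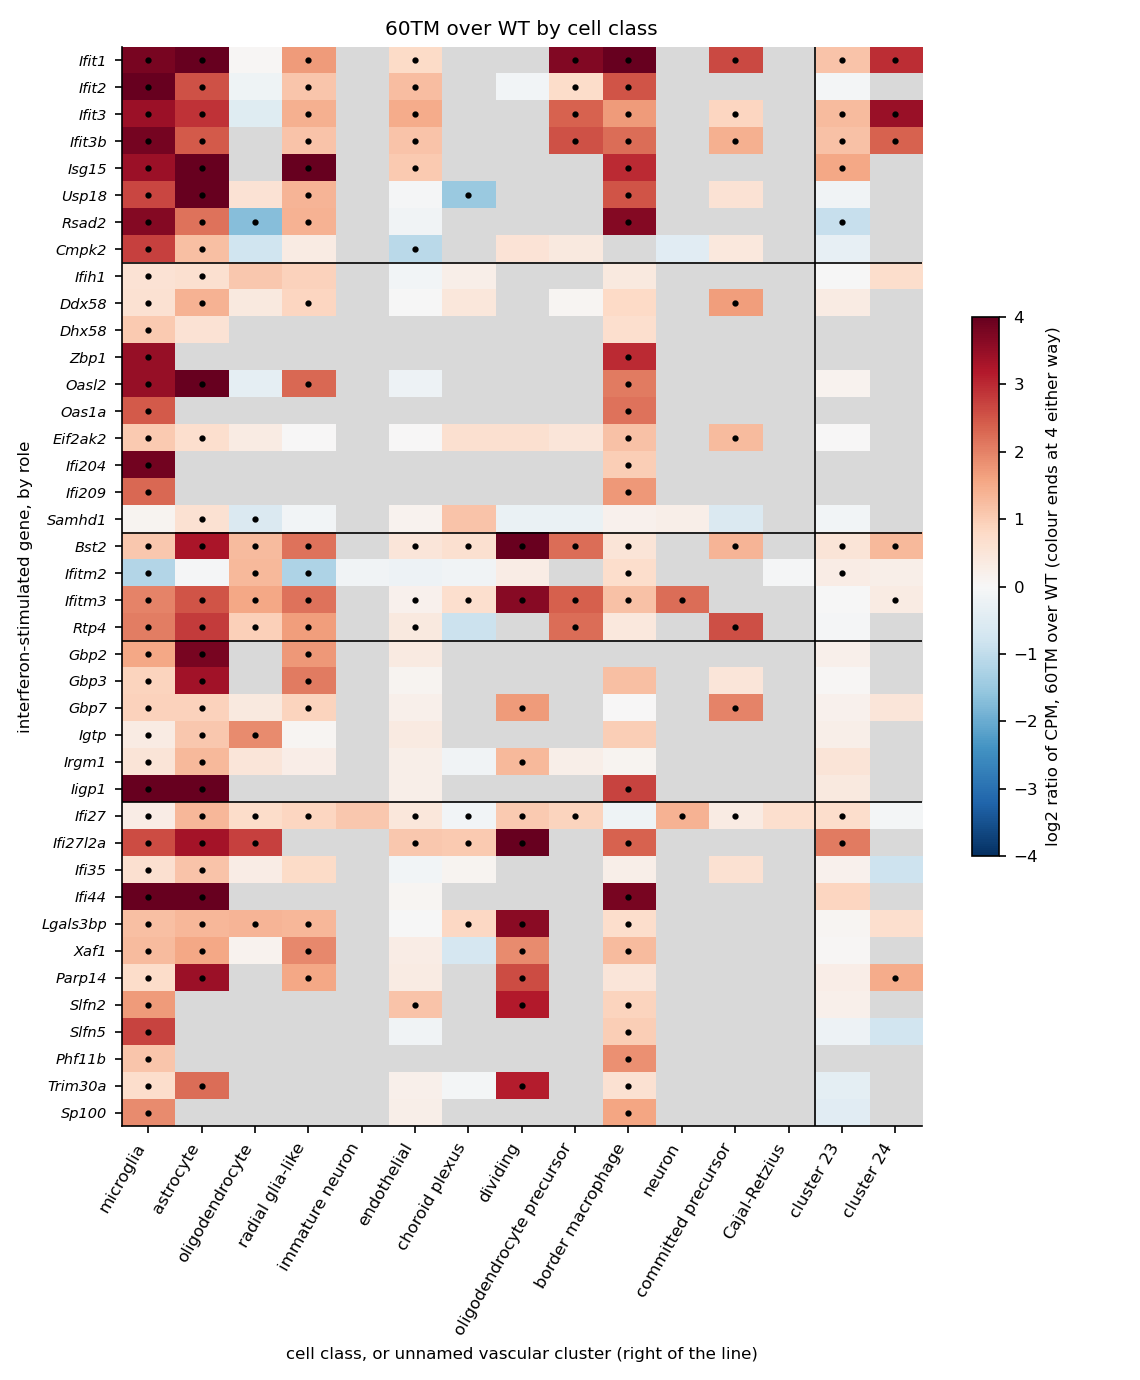
Log2 ratio of 60TM over WT for each of the 40 genes (rows, by role) in each cell class and in clusters 23 and 24 (columns). Red is higher in 60TM and blue lower, grey stands for fewer than 20 UMIs over both libraries, and dots mark ratios whose 95% counting interval leaves out 1, with the Ifit rows red in microglia, astrocytes, radial glia-like cells and border macrophages and the endothelial column pale.

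No gene was higher in all 13 classes. Ifi27 was the 1 gene measured in all 13, and it was higher in 4 of them, with an interval that includes 1 in immature neurons. Counting classes with a ratio of at least 2 and an interval above 1, Ifitm3 had the widest spread, in 8 of the 10 classes where it was measured. Bst2 followed with 7 of 10, and Ifi27l2a and Ifit3b with 7 of 7, although most endothelial Ifi27l2a UMIs came from 1 cell in each library. Ifit1 and Ifit3 were higher in 6 of 8 classes and Isg15 in 5 of 5. These genes span the roles, from membrane restriction to RNA binding. A class could reach the minimum through 60TM counts alone, as for Isg15 in astrocytes (3 and 679 UMIs) and Ifitm3 in neurons (3 and 21). These fractions thus partly follow from the minimum. At the other end, Dhx58, Ifi204 and Slfn5 were called in microglia and in no other class, although Ifi204 and Slfn5 had ratios of 1.96 and 2.0 in border macrophages, just under the call. The log2 ratio of Dhx58 was 1.03 in microglia, just over the call, and 0.587 in astrocytes. The difference was 0.445 (-0.885 to 1.77), an interval that includes 0. Zbp1, Oas1a, Ifi209, Phf11b and Sp100 were called in microglia and border macrophages, and of these Sp100 alone was measured in a further class. Over its last 500 bases, Phf11b shares 42.6% of its 50-base words with Phf11c. Its counts are thus uncertain, as are those of Oas1a and Ifi209. Ifi35 was called in astrocytes alone, with a ratio of 2.18 (1.28 to 3.98) against 1.54 (1.38 to 1.72) in microglia. No gene was called in endothelial cells alone. Slfn2 was called there with a ratio of 2.20 (1.33 to 3.80), as well as in microglia and in the dividing class.

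Differences of log2 ratios between classes show which genes parted. Between microglia and astrocytes 32 genes could be compared, and the counting interval of the difference leaves out 0 for 20. The ratio was larger in microglia for 6, which were Ifit2, Ifit3, Ifit3b, Rsad2, Cmpk2 and Eif2ak2, a kinase that senses double-stranded RNA. It was larger in astrocytes for 14, among them Isg15, Bst2, Ifitm3, Rtp4, Gbp2, Gbp3, Igtp and Irgm1. For Ifit2 the microglial minus the astrocyte log2 ratio was 1.63 (0.63 to 2.63). For Bst2 it was -2.20 (-2.60 to -1.81), for Gbp2 -2.25 (-3.14 to -1.37) and for Isg15 -2.98 (-4.65 to -1.30). With clusters weighted as in WT, which leaves out cluster 27, the astrocyte ratios were 3.02 for Ifitm3 and 2.26 for Gbp2. These were below the microglial ratios of 3.93 and 2.89, which are not weighted in this way. Ifitm2 is also among the 14, and its microglial ratio rests on the 13 WT cells described above. Against endothelial cells the ratio was larger in microglia for 26 of 34 genes and in astrocytes for 26 of 31. Each class rests on the same libraries, and these intervals cover counting error only.

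Per cell, the set was spread unevenly. After thinning to 2000 UMIs per cell, the mean number of UMIs of the set was 2.20 in WT and 4.99 in 60TM microglia, with medians of 2 and 3. Cells with at least 5 of the 40 genes made up 4.69% (3.82 to 5.69) of WT and 25.3% (23.6 to 27.1) of 60TM microglia, or 40.9% and 75.3% without thinning. The 10% of cells with most UMIs of the set held 34.2% of them in WT and 40.8% in 60TM. A minority of cells thus carried much of the level, and the median cell also had more in 60TM. In astrocytes the means were 0.694 and 1.97 UMIs, and 57% (53.7 to 60.3) of WT and 33.7% (31.6 to 36) of 60TM cells had none, or 26.8% and 12.4% without thinning. The means were 9.48 and 21.6 UMIs in border macrophages and 11 and 11.1 in endothelial cells. Immature neurons, taken as the background of free RNA, had means of 0.110 and 0.164 UMIs. Thinning left out 18 WT and 14 60TM microglia and 66 and 193 astrocytes.

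**Figure D5:**
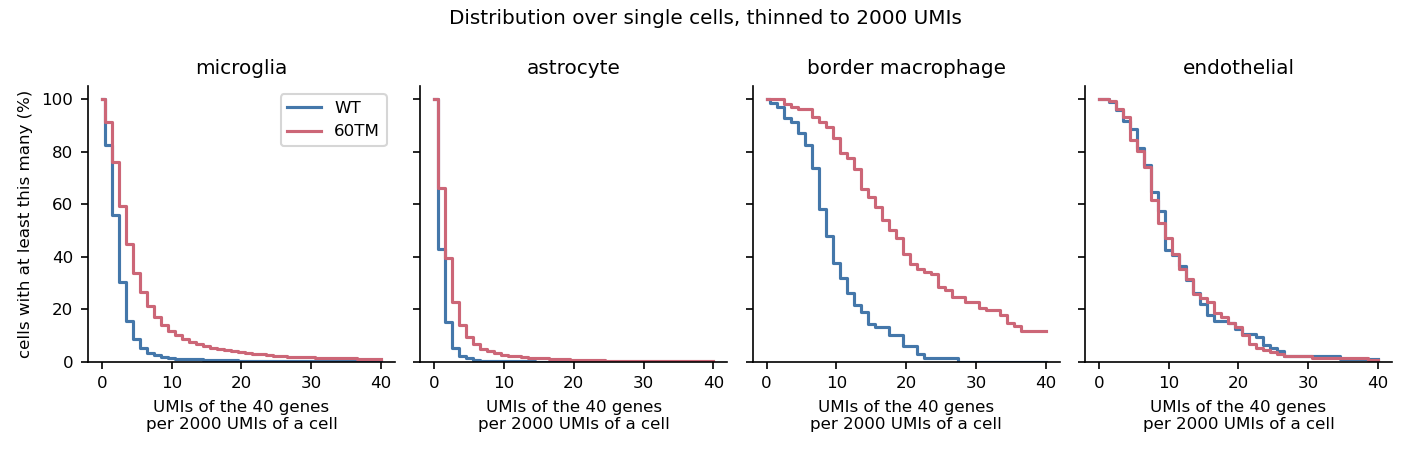
Share of cells (percent) with at least a given number of UMIs of the 40 genes after thinning each cell to 2000 UMIs, for the WT and 60TM library. The 60TM curve lies above the WT curve in microglia and astrocytes, and the curves run close together in endothelial cells.

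Shares of cells with a UMI of Isg15 were 0.773% (0.442 to 1.25) of thinned WT and 6.52% (5.58 to 7.58) of 60TM microglia, or 2.97% and 15.2% without thinning. In astrocytes they were 0.112% (0.00285 to 0.625) and 3.13% (2.38 to 4.03), or 0.314% and 6.60% without thinning. In immature neurons Isg15 was seen in 0 of 182 WT cells, which allows a share of up to 1.65%, and in 0.685% (0.0173 to 3.76) of 60TM cells. The 60TM microglial share of Isg15 was above the neuronal interval, and the WT shares and the 60TM astrocyte share were not. Median depths before thinning were 5680 and 6931 UMIs in microglia, 5973 and 7167 in astrocytes and 7813 and 7361 in immature neurons. In astrocytes Bst2 was seen in 1.24% (0.619 to 2.20) of cells in WT and in 10.2% (8.85 to 11.7) in 60TM, or 4.19% and 23.1% without thinning, against 0.549% (0.0139 to 3.02) and 1.37% (0.166 to 4.86) of immature neurons. Its 60TM astrocyte share was thus above the neuronal interval.

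The genes were found in the same cells in part. For each gene, cells were ranked by the UMIs of the other members, and its mean in the first 10% of cells was set against that in the rest. Over genes with at least 20 thinned UMIs, the median of this ratio was 5.89 in 60TM microglia (39 genes). Other classes and libraries had other genes past this minimum, and their medians were not compared. In 60TM microglia Ifit3b had 71 UMIs in the first 10% of cells and 6 in the rest, while Ifi27 had a ratio of 0.749. Ifit3b thus marked the cells rich in the other genes and Ifi27 did not. In 60TM astrocytes Isg15 had 105 and 26 UMIs in the same split. Cells of a library share its depth and source, and no test was made.

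Genes upstream of the set were taken from fixed lists. Over all cells Ifnb1 had 1 and 0 UMIs, Ifnab 0 and 1, Ifng 5 and 21, and Ifna1, Ifna2, Ifna4, Ifna5, Ifne, Ifnl2 and Ifnl3 had 0 in both libraries, so ligand RNA was at or near the detection limit. Of 6 receptor chains, 5 were measured and 0 were called in microglia, in astrocytes and in endothelial cells. In microglia Ifnar1 had 57.4 and 54.6 CPM, a ratio of 0.951 (0.865 to 1.05), and Ifngr1 had 788 and 709 CPM, a ratio of 0.900 (0.877 to 0.923). Receptor levels thus differed little in classes where the targets differed much.

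In the signal relay, Stat2 had ratios of 2.11 (1.77 to 2.54) in microglia and 1.15 (0.930 to 1.42) in astrocytes. Irf9, a DNA-binding factor of the relay, had 1.45 (1.31 to 1.62) in microglia, 2.09 (1.60 to 2.76) in astrocytes and 2.24 (1.65 to 3.05) in oligodendrocytes. Irf7, which amplifies type I interferon and is itself induced, had 36 and 453 UMIs in microglia, a ratio of 9.06 (6.45 to 13.1). Its ratios were 6.76 (2.53 to 25.5) in astrocytes, 4.80 (2.74 to 9.06) in border macrophages and 1.29 (0.975 to 1.74) in endothelial cells, so it was called in the first 3 of these classes and not in endothelial cells. Irf1, a factor that interferon gamma induces, had 28 and 909 UMIs in astrocytes, a ratio of 12.2 (8.38 to 18.5), and a ratio of 1.57 (1.41 to 1.75) in microglia.

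Of 47 further interferon-induced genes, 40 were measured in microglia. Of these, 17 were higher and 2 (Ifitm1 and Slfn1) were lower, beside 2.63% and 1.74% of all measured genes. Neutrophil markers had 457 CPM in WT and 54.1 CPM in 60TM microglia, and the part of such cells in the 2 lower genes was not tested. In astrocytes 13 of 24 measured were higher (beside 6.59%), in border macrophages 10 of 29 (beside 4.22%), in endothelial cells 3 of 21 (beside 2.32%) and in oligodendrocytes 1 of 11 (beside 2.74%). The 1 in oligodendrocytes was Trim25, with a ratio of 2.07 (1.38 to 3.14). Ifi213 and Ifi206, relatives of Ifi204, had 1 and 115 UMIs (ratio 82.8 (14.6 to 3298)) and 2 and 134 UMIs (ratio 48.2 (13.1 to 402)) in microglia. Gbp5, a guanylate binding protein, had 4 and 387 UMIs in astrocytes, a ratio of 36.3 (14.1 to 134), and a ratio of 2.48 (1.69 to 3.74) in endothelial cells. Ifi213 and Ifi206 in microglia and Gbp5 in astrocytes had few WT UMIs and reached the minimum through the other library. The counts of higher genes in this list thus partly follow from the minimum. A count limited to genes measured by WT alone is not given for it. Ly6a and Gbp4 had ratios of 1.16 (1.10 to 1.21) and 1.63 (1.03 to 2.65) in endothelial cells. The chemokine Cxcl10, which draws T cells, had 46 and 609 UMIs in microglia, a ratio of 9.53 (7.06 to 13.2), and 8 and 11673 UMIs in astrocytes, a ratio of 548 (278 to 1270). Socs3, a feedback inhibitor that other cytokines induce as well, had ratios of 2.26 (2.17 to 2.34) in microglia and 8.41 (4.49 to 17.8) in astrocytes.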

How the data were processed

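Single-cell RNA-seq libraries of hippocampus, 1 per genotype, were analysed. The deposited matrices hold whole UMI counts, not normalized. Per the submitters' processing notes, Cell Ranger 5.0.0 and build GRCm38 were used. Gene and barcode lists, deposited beside them, were used for names. Barcodes with fewer than 500 genes (264 WT, 338 60TM), over 15% mitochondrial UMIs (232 and 384) or the highest Scrublet scores (scanpy 1.11.5; 0.8% per 1000 barcodes, 5.49% and 6.98%, where the automatic threshold took 3.34% and 3.40%) were removed. Leiden clustering (resolution 1) used 2000 variable genes, 30 components and 15 neighbours, without the interferon genes. A cluster took the name of the class with at least 3 fixed markers at a log2 ratio of at least 1, and clusters with a close second class stayed unnamed. UMIs were summed per class and library and scaled to CPM. Ratios have exact conditional-binomial intervals, levels Poisson and shares Clopper-Pearson intervals. A side with 0 UMIs was set to 3, and the limit printed for a share of 0 is 3 cells. The ratio and its interval were checked on simulated counts, drawn from the Poisson model that the interval assumes. That check does not cover genes whose UMIs sit in few cells.

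The named genes are, per class, the 10 with at least 100 UMIs whose interval bound nearest to 1 lies farthest from 1, every gene at least 2-fold lower, and those called in most classes. The rule for pericytes could not be applied. Other genes are named as examples of their role group, chosen after their values were seen. The members and lists were chosen with earlier results of these data known. Alternatives covered scaling, minimum UMIs, fold, cell filters, clustering, thinning, free RNA and weighting by cell. The weighting of clusters as in WT was chosen after seeing the data. A result of the pathway lists that needs a withheld item is not reported here.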

Additional observations from a re-analysis of the deposited data

Results flagged for a closer look

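Several genes were at least 2-fold lower in 1 or more classes and at least 2-fold higher in others, with counting intervals that leave out 1 on both sides. The difference itself was not tested, since each genotype has 1 library. Usp18 had a ratio of 0.357 in choroid plexus epithelium, against 6.31 in microglia, 15.8 in astrocytes, 2.59 in radial glia-like cells and 5.75 in border macrophages, and 50% of its WT choroid plexus UMIs came from 1 cell. Rsad2 had 0.307 in oligodendrocytes, against 12.7 in microglia and in border macrophages, 4.53 in astrocytes and at least 2.61 in radial glia-like cells, and 71.9% of its 32 WT oligodendrocyte UMIs came from 1 cell. Of its 84 60TM UMIs in border macrophages, 41.7% came from 1 cell. Cmpk2 had 0.469 in endothelial cells, against 6.68 in microglia and 2.29 in astrocytes, where 43.4% of its 122 60TM UMIs came from 1 cell. Ifitm2 had 0.446 in microglia and 0.425 in radial glia-like cells, against 2.46 in oligodendrocytes, where it rested on 10 WT and 15 60TM UMIs. In microglia 82% of its WT UMIs came from 13 cells with neutrophil and monocyte markers, and without these and 7 such 60TM cells it stood at 2.71 CPM (WT) and 4.42 CPM (60TM).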

How the results depend on the processing

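No paired analysis was possible because each genotype has 1 library. Over all alternatives the number of genes higher ranged from 24 to 34 in microglia, 19 to 31 in astrocytes, 11 to 21 in radial glia-like cells and 14 to 29 in border macrophages. The astrocyte median log2 ratio fell from 2.35 to 1.25 with clusters weighted as in WT. In oligodendrocytes the count of 7 became 3 at 50 UMIs, 12 with no minimum, 16 without doublet removal, 2 thinned and 3 with 5% free RNA subtracted, where the median was -0.11. In endothelial cells the count of 6 became 1 thinned (median -0.017) and 2 as a mean over cells (median -0.00057). In choroid plexus the count of 2 became 1 at 50 UMIs, thinned or as a mean over cells, 0 with looser gene and stricter mitochondrial filters or free RNA subtracted, and 6 at 1.5-fold, and the median was -0.029 with no minimum. In dividing cells the count of 11 became 5 at 50 UMIs, 21 with no minimum, 7 at resolution 2 and 2 thinned. In oligodendrocyte precursor cells the count of 6 became 1, 10 with no minimum and 2 thinned, and in committed precursors the count of 7 became 1 thinned and 11 as a mean over cells. Ifitm2 in microglia turned to 1.59 without doublet removal, 1.79 with the other cell filters, 1.63 with interferon genes in the clustering and at resolution 2, and 1.64 by marker score. Endothelial Bst2 (0.959), Rtp4 (0.989) and Ifitm3 (0.972) turned as means over cells, and Ifitm3 (0.907) when thinned. The cause of these changes was not tested. Isg15 in astrocytes ranged from 28.1 to 228-fold.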
